A study of Mus musculus with 6 samples.

Results

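Hpgd, the enzyme that oxidizes and thereby inactivates prostaglandins, had the widest difference between the groups among 10 enzymes of prostaglandin and leukotriene metabolism measured by bulk RNA-seq in mouse MLL-AF9 leukemia. The 10 enzymes were Ptgs1, Ptgs2, Ptges, Hpgds and Hpgd of the prostaglandin branch and Alox5, Alox5ap, Lta4h, Ltc4s and Alox15 of the lipoxygenase branch, of 55487 genes in the table. They were listed by name and selected on their measured levels and differences between these groups, so the values and differences below are a description and carry no test. Transformed CD45.2 donor cells on a C57BL/6 background carried the MLL-AF9 fusion, Mx1-Cre and floxed Brd9 (Brd9 fl/fl) in both groups, and 1000 of them were injected into irradiated CD45.1 recipients. Recipients then got 3 doses of either PBS or pIpC at 20 mg/kg, an inducer of interferon that switches on the Mx1 promoter and hence the Cre recombinase, and cells were collected on day 10 after injection. The Mx1 promoter answers to interferon in many cell types, and as no group got pIpC without Cre, Cre activity and the interferon response to pIpC cannot be told apart. There were 3 libraries per group, and nothing in the labels says how many animals each stands for. The SDs below thus measure the spread between these libraries and not between animals. The standard errors (SE) are those of limma, which draws the variance of each gene toward a trend over all genes tested. They are therefore not the spread of that gene alone.

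Prostaglandins and leukotrienes are made from arachidonic acid that phospholipases free from membranes. Cyclooxygenases turn it into prostaglandin H2, which terminal synthases convert to prostaglandins E2, D2 and others, and 15-hydroxyprostaglandin dehydrogenase (Hpgd) ends their action. 5-lipoxygenase with its activating protein opens the leukotriene branch, which is a known property of neutrophils, monocytes and mast cells, while hematopoietic stem cells are known to respond to prostaglandin E2.

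Between 19277439 and 23586722 reads fell on genes per library, and all values below are normalized counts, that is reads divided by 1 size factor per library. Brd9, the targeted gene, stood at 1926.8, 1946.4 and 1631.9 in the PBS libraries and at 2036, 2263 and 2011.4 in the libraries labelled pIpC. Brd9 was thus not lower there, with a log2 difference of 0.20 (SE 0.13, limma adjusted p = 0.259) and an exact permutation p of 0.1, the smallest that 3 against 3 libraries allow. Counts over the whole gene do not separate transcripts that lack the floxed part, so this does not measure deletion, and the second group is called the libraries labelled pIpC throughout. The MLL-AF9 target genes Hoxa9, Hoxa10 and Meis1 summed to 10125 to 10484 in the PBS libraries and to 470.2 to 527.3 in the libraries labelled pIpC, with each of the 3 below. A mature neutrophil list of 8 genes, among them Ly6g and Ltf, lay the other way, between 14248 and 33616 in PBS and between 1868700 and 1943600 in the other group, with 8 of 8 above, in cells labelled as GFP+ cells from the marrow of femora and tibiae. The erythroid list lay between 18.1 and 30.5 in PBS and between 1959.7 and 2932.4 in the other group, and the B cell list between 135.6 and 301.1 and between 1085.8 and 1756, with 6 of 6 genes above in each. PBS replicate 3 lay apart from the other PBS libraries for several genes of the pathway, and values without it are given where they matter.

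A gene was tested when its normalized count averaged 10 or more across the 6 libraries, which 9 of the 10 enzymes did and Ltc4s did not. Every library labelled pIpC lay above every PBS library for 5 of the 10, Ltc4s among them, below for 2, and the groups overlapped for 3. The groups were thus apart for 6 of the 9 enzymes that passed the filter, and such separation was common, at 56.8% of all genes tested (30.5% higher and 26.3% lower), so this count says nothing particular about the enzymes. Without PBS replicate 3 the groups were apart for all 9, and for 73.3% of genes. What set the enzymes apart from each other was the size of the difference, which ranged from a log2 difference of -9.31 for Hpgd to 3.35 for Hpgds, and 3 enzymes, Hpgd, Hpgds and Alox5, were the ones that differed by more than 4-fold with a mean of at least 10.

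**Figure D1:**
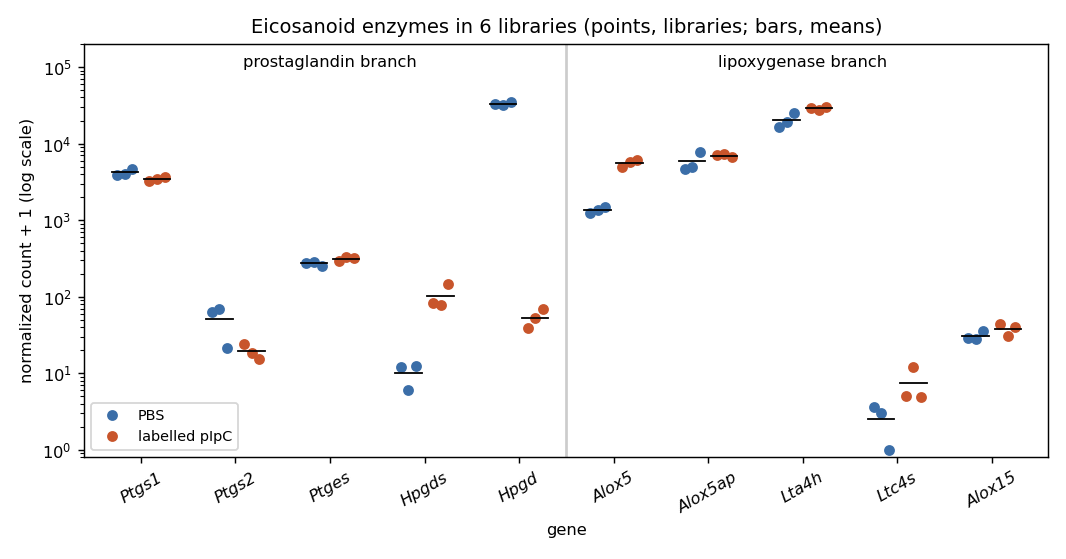
Normalized count + 1 (log axis) of the 10 enzymes in each of the 6 libraries; blue points are the 3 PBS libraries, orange points the 3 libraries labelled pIpC, and black bars group means. Hpgd lies between 31600 and 34495 in PBS and between 37.9 and 67.7 in the other group, while Hpgds and Alox5 lie higher in every library labelled pIpC and Ptgs1, Ptges, Alox5ap, Lta4h and Alox15 differ little.

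The starts of these 3 genes are shown because their transcripts differed most between the groups. Promoter windows were taken from RefSeq on GRCm38.p6, from 250 bases before to 50 bases after the annotated start, and 8 of the 10 enzymes had one (no entry was matched for Alox5ap and Alox15). They are written 5' to 3' on the strand of the gene, in lower case, with matches to the motifs named below in capitals.
Hpgd, chr8:56294302-56294601, plus strand: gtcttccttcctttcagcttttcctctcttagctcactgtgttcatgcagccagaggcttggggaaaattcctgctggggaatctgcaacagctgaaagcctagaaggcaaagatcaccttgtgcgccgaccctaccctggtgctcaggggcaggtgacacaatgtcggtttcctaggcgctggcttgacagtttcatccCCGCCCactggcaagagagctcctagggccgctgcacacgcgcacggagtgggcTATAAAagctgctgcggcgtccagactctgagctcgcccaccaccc
Hpgds, chr6:65144681-65144980, minus strand: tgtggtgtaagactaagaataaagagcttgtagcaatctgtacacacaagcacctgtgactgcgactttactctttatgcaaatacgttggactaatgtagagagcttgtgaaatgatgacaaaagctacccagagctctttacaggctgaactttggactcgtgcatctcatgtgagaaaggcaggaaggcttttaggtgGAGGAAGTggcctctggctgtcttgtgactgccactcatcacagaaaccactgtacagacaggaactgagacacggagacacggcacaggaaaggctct
Alox5, chr6:116461129-116461428, minus strand: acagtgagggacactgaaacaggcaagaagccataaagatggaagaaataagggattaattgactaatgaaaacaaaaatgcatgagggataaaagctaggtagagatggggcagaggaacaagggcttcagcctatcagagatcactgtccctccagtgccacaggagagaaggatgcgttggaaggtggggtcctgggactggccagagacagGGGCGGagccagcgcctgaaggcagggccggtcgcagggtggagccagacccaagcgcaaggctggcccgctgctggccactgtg

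Both strands were searched for the TATA box TATAAA, the GC box GGGCGG, the CCAAT box CCAAT, the E-box CACGTG, a PU.1 site GAGGAAGT, the C/EBP palindrome TTGCGCAA and a HOX-MEIS site TGATTTAT. None of these letter strings contains another, although matches can lie side by side. The Hpgd window held a TATA box, found in 13.6% of 32851 windows, and a GC box on the opposite strand, found in 35.7%. The TATA box began 4 bases after the RefSeq start and 29 bases before the start of the longest GENCODE gene model. The Hpgds window held 1 PU.1 string, found in 3.20% of windows and also in that of Ptgs1, and the Alox5 window held 1 GC box. The Hpgds string began 49 bases before the RefSeq start but lay inside the longest GENCODE gene model. Among the other enzymes, Ptgs2 held a GC box, an E-box (7.15% of windows) and the C/EBP palindrome (0.183%), Ptges held 2 GC boxes, Lta4h held 2 CCAAT boxes (37.4%) and Ltc4s held no match. The HOX-MEIS string was in 0.977% of windows and in none of the 8. These are matches of letters and not evidence of binding.

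Hpgd lies on chromosome 8 at 56294585 to 56321043 (GRCm38, plus strand), with 1683 bases of exon. It stood at 32736, 31600 and 34495 in the PBS libraries and at 37.9, 51.1 and 67.7 in the libraries labelled pIpC. The groups were far apart, and within each the libraries were close on this scale. The means were 32944 ± 1459 and 52.2 ± 14.9 (SD, n = 3 each), a 631-fold lower level with a log2 difference of -9.31 (SE 0.21), the 5th lowest of 15020 genes tested. Leaving out 1 library at a time moved it between -9.51 and -9.10. In whole reads these were 99537 over the PBS libraries and 158 over the others, so the lower level was counted and not at 0.

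Hpgd alone took 0.144% to 0.169% of all reads on genes in the PBS libraries. Per kb of exon it ranked at 72 of the 15020 genes tested in PBS and at 10853 in the libraries labelled pIpC. Hoxa9 was left with 4.99% of its PBS mean, Meis1 with 6.18% and Hoxa10 with 1.16%, against 0.159% for Hpgd. Fewer cells of a type and less RNA per cell cannot be told apart in bulk samples, and the part of cell composition in the Hpgd difference was not tested. The resident macrophage list, whose cells are known for Hpgd, summed to 10350 to 14688 in PBS and 7019 to 9264.9 in the other group. There 8 of its 10 genes lay above and 2, Adgre1 and Vcam1, below. Most of that sum was Adgre1 (4307 ± 138 and 310 ± 44.5) and Vcam1 (8421 ± 2115 and 4444 ± 602), so it does not describe the other 8 genes. The eosinophil list summed to 8578.6 to 14378 and 4772.3 to 5416.1, with 6 of 8 genes above. Siglecf lay below (6046 ± 368 and 699 ± 46.5) and Prg2 overlapped (4786 ± 3284 and 2873 ± 140), and these 2 were most of that sum.

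Over the 6 libraries, 162 of the 10486 genes whose normalized counts averaged 100 or more had a Pearson r above 0.99 with the log2 values of Hpgd. The highest were Hist1h2bq (0.99985), Hist1h2br (0.99984), Col11a2 (0.99956), Hoxa9 (0.99947) and Gpr19 (0.99932). All points share the same step between the groups, which alone can give such values, so this is a description. Hist1h2bq and Hist1h2br are near-identical copies whose reads cannot be assigned with certainty. Their size of change was smaller than that of Hpgd, since Hist1h2bq was at 995 ± 22.9 and 106 ± 8.81, Col11a2, a collagen chain, at 2130 ± 42.9 and 383 ± 23.8, and Gpr19, an orphan receptor, at 241 ± 1.59 and 124 ± 1.69. Hoxa9, the leukemic homeobox gene, was at 5130 ± 195 and 256 ± 28.4.

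Within 500 kb on either side of Hpgd the annotation had 13 other genes, of which 4 could be tested and 8 were at 0 in all 6 libraries. Glra3, a glycine receptor subunit gene 165 kb before Hpgd, stood at 158.3, 145.8 and 78.1 in PBS and at 0 in each library labelled pIpC. It was called lower (limma adjusted p = 4.85e-05) and was at least 42.7-fold lower when 3 reads per library are taken as the floor. Glra3 passed the filter through the PBS libraries alone, so that a difference was built into its passing. Gm45540, an unclassified transcript annotated on the same strand within the Hpgd gene, stood at 1602.4, 1534.5 and 211.6 against 0, 4.09 and 0 (log2 difference -8.87, SE 0.98, adjusted p = 0.000598). It too passed the filter through the PBS libraries alone. PBS replicate 3 was far below the other PBS libraries for Gm45540 and not for Hpgd itself. Because it lies inside Hpgd, reads from unspliced Hpgd RNA cannot be told apart from its own.

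The genes on the far side did not pass the test. Cep44 was at 587 ± 36.6 in PBS and 476 ± 19.1 in the libraries labelled pIpC (log2 difference -0.30, SE 0.13, adjusted p = 0.109), and Fbxo8 at 229 ± 19.7 and 237 ± 25.1 (0.05, SE 0.17, adjusted p = 0.848). Apart from Gm45540, 1 of 3 tested neighbours was thus called lower, beside 20.4% of all genes tested. That gene was Glra3, which passed the filter through the PBS libraries alone, so this count is no support.

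**Figure D2:**
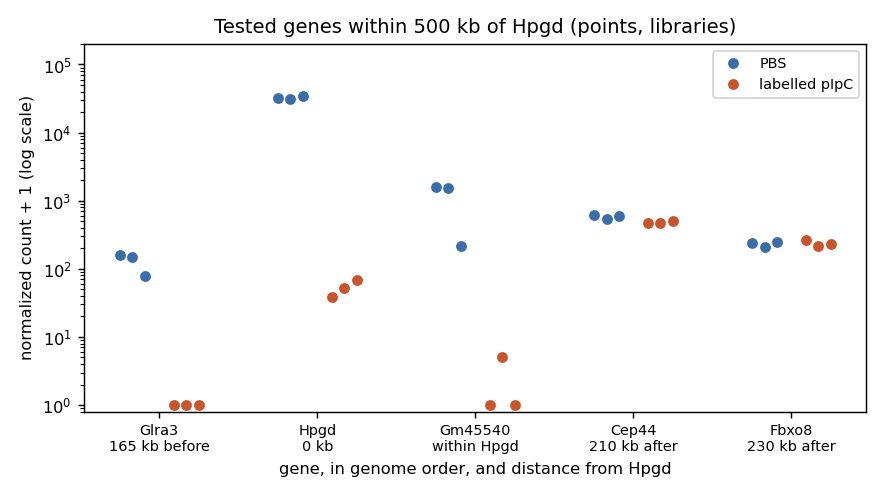
Normalized count + 1 (log axis) of Hpgd and the 4 tested genes within 500 kb of it, in genome order with their distance in kb; blue points are PBS libraries and orange points libraries labelled pIpC. Glra3 is at 0 in all 3 libraries labelled pIpC, and Cep44 and Fbxo8 have similar values in both groups.

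The cyclooxygenases, which make prostaglandin H2, differed less. Ptgs1 (COX-1, chromosome 2 at 36230426 to 36252272, plus strand) stood at 3892.6, 4026.5 and 4710.0 in PBS and at 3206.8, 3458.4 and 3637.8 in the libraries labelled pIpC. The groups did not overlap but lay close, with means of 4210 ± 438 and 3434 ± 217 and a log2 difference of -0.29 (SE 0.13). An unclassified transcript on the opposite strand, Gm43621, shares 148 exon bases with Ptgs1, and the preparation did not keep strand according to the labels, but its own counts were at most 120.

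Ptgs2 (COX-2, the inducible cyclooxygenase, chromosome 1 at 150100031 to 150108227, plus strand) was scarce, at 61.4, 67.8 and 20.4 in PBS and at 23.0, 17.4 and 14.5 in the libraries labelled pIpC. PBS replicate 3 fell among the libraries of the other group. The log2 difference was -1.25 (SE 0.50) and -1.79 without PBS replicate 3. Per kb of exon, Ptgs1 exceeded Ptgs2 in every library, by 70.0 to 273 times in PBS and 165 to 296 times in the libraries labelled pIpC, and these ranges overlapped.

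Of the terminal synthases, Ptges (microsomal prostaglandin E synthase 1, chromosome 2 at 30889471 to 30929863, minus strand) was at 277.7, 282.4 and 251.2 in PBS and at 289.4, 328.0 and 323.9 in the libraries labelled pIpC. The groups did not overlap, and the log2 difference was 0.21 (SE 0.15). Hpgds (hematopoietic prostaglandin D synthase, chromosome 6 at 65117293 to 65144908, minus strand) was near the limit of detection in PBS, at 11.2, 5.1 and 11.3, and at 82.8, 77.6 and 145.0 in the libraries labelled pIpC. It reached the filter through the second group alone, so that a difference was built into its passing.

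The Hpgds means of 9.21 ± 3.59 and 102 ± 37.5 gave an 11.1-fold higher level and a log2 difference of 3.35 (SE 0.42), which was 2.51 with a pseudocount of 10 in place of 1. Hpgds is known from mast cells, megakaryocytes and T helper cells. The mast cell list summed to 2992.7 to 4973.7 in PBS and 6806.6 to 7923.5 in the other group, with 4 of 8 genes above. Of these 4, Cma1 had no read in PBS and only 2, 1 and 2 reads in the other group. Another, Hdc, at 2762 ± 506 and 5739 ± 645, was most of the sum of the list. Cpa3 overlapped, at 1021.5 ± 578 and 911 ± 254, and the mast cell proteases Mcpt4, Tpsb2 and Tpsab1 were at 0 in all 6 libraries. The megakaryocyte and platelet list summed to between 379 and 555.7 in PBS and between 1545.3 and 2194.6 in the other group, with 7 of 7 genes above. The T and NK cell list lay between 176.5 and 316.9 and between 3827.4 and 4466.3, with 6 of 6 above. Most of that sum was Nkg7, at 210 ± 78.9 and 4023 ± 306. The T cell genes Cd3e, Cd3d, Cd4 and Cd8a averaged 7.95, 42.2, 36.2 and 7.64 in the libraries labelled pIpC. The basophil list lay between 1541.7 and 2257.7 and between 14990 and 18457, with 4 of 5 above. Most of it was Ms4a3, at 1712 ± 335 and 12622 ± 1078. The part of these cells in the Hpgds difference was not tested.

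In the leukotriene branch, Alox5 (5-lipoxygenase, chromosome 6 at 116410077 to 116461178, minus strand) stood at 1238.1, 1341.2 and 1485.9 in PBS and at 4924.4, 5761.3 and 6127.9 in the libraries labelled pIpC. The lowest value of the second group was above 3 times the highest of the first. The means of 1355 ± 124 and 5605 ± 617 gave a 4.14-fold higher level and a log2 difference of 2.05 (SE 0.14), between 1.98 and 2.14 with any 1 library left out. Mature neutrophils are known for 5-lipoxygenase, and their 8 marker genes lay above in every library labelled pIpC, as given above. The monocyte list lay between 24513 and 28459 in PBS and between 38493 and 42486 in the other group, with 4 of 5 genes above. Most of that sum was Ly6c2, at 22949 ± 2529 and 30205 ± 1804, and Csf1r overlapped, at 1619 ± 223 and 1714 ± 104. The part of neutrophils and monocytes in the Alox5 difference was not tested.

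Alox5ap (the 5-lipoxygenase activating protein, chromosome 5 at 149264767 to 149288153, plus strand) was at 4700.7, 5000.2 and 7867.3 in PBS and at 6997.4, 7268.3 and 6608.5 in the libraries labelled pIpC. PBS replicate 3 was the highest of all 6 libraries, and the other PBS libraries were the lowest. The log2 difference was 0.29 (SE 0.21) and 0.52 without PBS replicate 3. An antisense gene, Gm19719, shares 189 exon bases with it and was at 44.1 to 404 in the 6 libraries, and without strand the shared reads cannot be told apart.

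Lta4h (leukotriene A4 hydrolase, the last step to leukotriene B4, chromosome 10 at 93453411 to 93484875, plus strand) was at 16635, 19287 and 25081 in PBS and at 29027, 27610 and 30306 in the libraries labelled pIpC. The groups did not overlap, the PBS libraries were the more spread out, and the log2 difference was 0.53 (SE 0.19, 0.40 to 0.69 with any 1 library left out). Ltc4s (leukotriene C4 synthase, chromosome 11 at 50236461 to 50238616, minus strand) had 3, 2 and 0 reads in PBS and 4, 11 and 4 in the libraries labelled pIpC. No fold is given for Ltc4s, since PBS was at the floor of 3 reads and an antisense gene, Gm26542, shares 268 of its 1014 exon bases.

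Alox15 (12/15-lipoxygenase, known from resident macrophages and eosinophils, chromosome 11 at 70344152 to 70352031, minus strand) was low throughout, at 27.7, 27.3 and 35.1 in PBS and at 42.9, 29.6 and 39.6 in the libraries labelled pIpC. The groups overlapped, and the log2 difference of 0.30 (SE 0.28) turned to -0.07 after quantile normalization, which moved the median of all genes to -0.12.

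Levels of different genes were compared per kb of exon, over the union of all annotated exons, which can be longer than the transcript. In PBS the order of the mean normalized count per kb was Hpgd (19574 ± 867), Alox5ap (4124 ± 1231), Lta4h (3332 ± 708), Ptgs1 (1084 ± 113), Alox5 (330 ± 30.3), Ptges (68.8 ± 4.28), Alox15 (12.2 ± 1.78), Ptgs2 (10.9 ± 5.62), Ltc4s (1.52 ± 1.35) and Hpgds (1.43 ± 0.559). The ranges of the libraries overlapped between Alox5ap and Lta4h, between Alox15 and Ptgs2 and between Ltc4s and Hpgds, so these neighbours in the order were not separated beyond their spread. Within each PBS library, however, Alox5ap was above Lta4h in 3 of 3. Lta4h had the higher counts in both groups, so its place below Alox5ap rests on the lengths used, 6102 and 1420 bases. The gene model of Ptges used for its length is longer than its RefSeq form, which lowers its value per kb.

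In the libraries labelled pIpC the order per kb was Alox5ap (4900 ± 234), Lta4h (4749 ± 221), Alox5 (1365 ± 150), Ptgs1 (884 ± 55.8), Ptges (79.8 ± 5.39), Hpgd (31.0 ± 8.86), Hpgds (15.9 ± 5.84), Alox15 (15.2 ± 2.82), Ltc4s (6.28 ± 4.16) and Ptgs2 (3.99 ± 0.938). Here the overlaps were between Alox5ap and Lta4h, Hpgd and Hpgds, Hpgds and Alox15, and Ltc4s and Ptgs2, though Hpgd was above Hpgds within 3 of 3 libraries and Alox5ap above Lta4h within 2 of 3. Hpgd went from the highest place to the 6th, and Alox5 moved above Ptgs1.

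**Figure D3:**
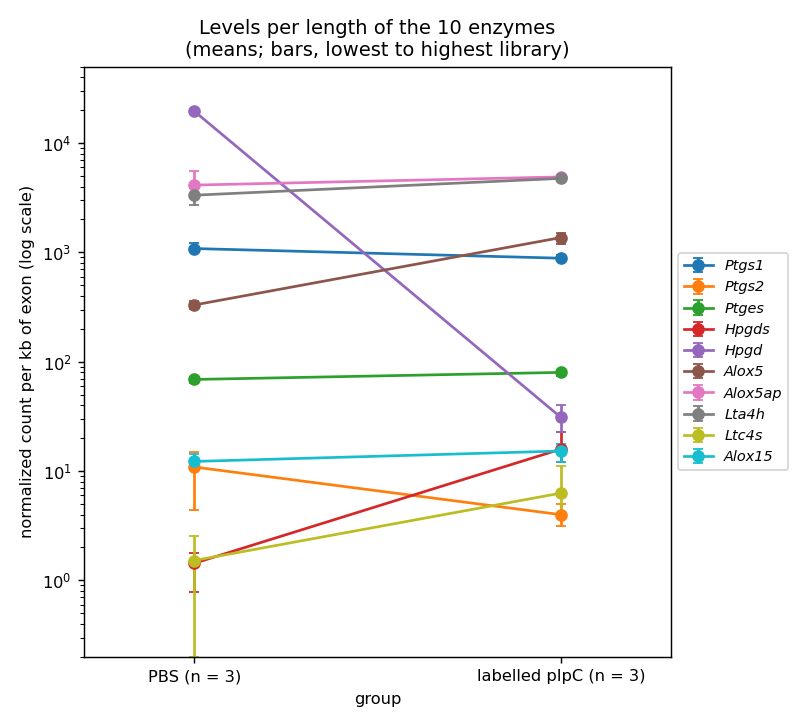
Mean normalized count per kb of exon (log axis) of the 10 enzymes in the PBS libraries and the libraries labelled pIpC (n = 3 each), with bars from the lowest to the highest library (the lowest Ltc4s value in PBS is 0 and its bar ends at the foot of the axis). The Hpgd line crosses those of 5 other enzymes as it goes from 19574 to 31.0, and the Alox5 line crosses that of Ptgs1.

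Ratios within a library do not depend on its size factor. Per kb, Hpgd exceeded Ptgs1 by 16.9 to 19.4 times in PBS, while in the libraries labelled pIpC Ptgs1 exceeded Hpgd by 23.3 to 36.6 times. Alox5 was 0.298 to 0.315 of Ptgs1 in PBS and 1.45 to 1.59 of it in the libraries labelled pIpC, so that Alox5 went from the less to the more abundant transcript of the pair. The ratio of Alox5 to Alox5ap was between 0.0653 and 0.0928 in PBS and between 0.243 and 0.321 in the other group, and that of Lta4h to Alox5 between 9.04 and 11.4 and between 3.22 and 3.97. None of these 4 ratios overlapped between the groups.

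The other genes of the pathway were taken from 8 lists made by function, 59 genes in all, of which 38 could be tested. Among the 38, in the libraries labelled pIpC 16 genes were called higher and 5 lower (limma, adjusted p under 0.1), beside 25.0% and 20.4% of all genes tested, and the median log2 difference was 0.50 beside 0.01 over all genes. Of the 16, 7 had a PBS mean under 10 and passed the filter through the libraries labelled pIpC alone. Neither their count nor the median of 0.50, which takes them in, is thus support. Among the 31 genes with a mean of at least 10 in each group, 9 were called higher and 5 lower, beside 20.2% and 19.8% of the 13160 genes that met the same condition. Without PBS replicate 3 the calls among the tested pathway genes were 32, 21 higher and 11 lower, and those over all genes also went up, to 34.5% higher and 30.6% lower.

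Of the genes that free arachidonic acid, 1 of 7 was called, beside 45.3% of all genes tested (median log2 difference 0.30). Pla2g4c, a cytosolic phospholipase A2, was higher at 60.6 ± 26.1 against 23.2 ± 4.34 (log2 difference 1.28, SE 0.38, adjusted p = 0.0400), but was not called without pIpC replicate 2 (adjusted p = 0.139), without replicate 3 (0.121) or after quantile normalization (0.102). Daglb, a diacylglycerol lipase, had the lowest difference of the list, at -0.44 (SE 0.20, adjusted p = 0.127). It was called lower by edgeR (-0.48, adjusted p = 0.0926) and DESeq2 (-0.47, adjusted p = 0.0846) on whole reads, after quantile normalization (-0.55, adjusted p = 0.0714) and without PBS replicate 3 (-0.64, adjusted p = 0.000181).

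Of the other prostanoid synthases, 3 of 6 were called lower and none higher, beside 20.4% and 25.0% of all genes tested (median log2 difference -0.74). Tbxas1, thromboxane synthase, was at 1122.2, 727.8 and 931.4 in PBS and at 529.0, 607.9 and 631.4 in the libraries labelled pIpC (-0.63, SE 0.19, adjusted p = 0.0374), though not called without pIpC replicate 1 (adjusted p = 0.131) or 2 (0.107). Akr1b3, an aldose reductase with prostaglandin F synthase activity, fell by 1.16 on the log2 scale (SE 0.23, adjusted p = 0.00850), from 3496 ± 1180 to 1511 ± 138. Cbr1, a carbonyl reductase that acts on prostaglandin E2, fell by 1.25 (SE 0.31, adjusted p = 0.0198), from 450 ± 207 to 178 ± 15.7, and both were highest in PBS replicate 3. Ptges2, microsomal prostaglandin E synthase 2, had 0.37 (SE 0.27, adjusted p = 0.319) and was called higher without PBS replicate 3, at 0.67 (adjusted p = 0.00192).

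Of the prostanoid receptors, 5 of 7 were called higher, beside 25.0% of all genes tested (median log2 difference 2.73). Among those called higher, Ptgdr and Tbxa2r had at most 1 read per PBS library and passed the filter through the other group alone. Neither the count nor the median, which take them in, is thus support. Of the 5 genes with a mean of at least 10 in each group, 3 were called higher and none lower. The shares over all genes that met this condition were 20.2% and 19.8%. Ptger4, the EP4 receptor for prostaglandin E2, was at 26.0, 61.7 and 45.3 in PBS and at 429.2, 413.8 and 409.0 in the libraries labelled pIpC, a log2 difference of 3.29 (SE 0.32, adjusted p = 0.000342). Ptgir, the prostacyclin receptor, was at 231.0, 184.2 and 147.1 against 1365.3, 1255.7 and 1070.5 (2.73, SE 0.20, adjusted p = 0.000117). Ptger2, the EP2 receptor, rose by 1.17 (SE 0.27, adjusted p = 0.0140), from 141 ± 45.0 to 308 ± 23.9. The EP1 receptor Ptger1 lay between 32.8 and 75.3 in the 6 libraries with no call (-0.12, SE 0.38, adjusted p = 0.832), and the thromboxane receptor Tbxa2r went from 0, 0 and 1.1 to 15, 37.8 and 24.2 (adjusted p = 0.00111).

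In the list of prostanoid transport and inactivation, which shares its function with Hpgd, 1 of 3 tested genes was called lower (median log2 difference -0.18). The share over all genes tested was 20.4%. Ptgr1, the prostaglandin reductase that acts after Hpgd and also inactivates leukotriene B4, was at 5787.4, 5873.7 and 11431.0 in PBS and at 2482.2, 2461.2 and 2625.4 in the libraries labelled pIpC. Every value was lower in the second group, and PBS replicate 3 was the highest of all. The log2 difference was -1.53 (SE 0.27, adjusted p = 0.00485), and -1.21 or lower with any 1 library left out. Abcc4, which exports prostaglandins, was at 1767 ± 612 and 2416 ± 154 and was not called (0.52, SE 0.28, adjusted p = 0.189). Without PBS replicate 3, whose value was 1061.5, it was called higher at 0.19 (adjusted p = 0.0533).

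Of the genes that conjugate, export or inactivate leukotrienes, 3 of 6 were called higher and 1 lower (median log2 difference 1.97). The shares over all genes tested were 25.0% and 20.4%. Among those called higher, Ggt1, a gamma-glutamyl transferase, had a PBS mean of 5.25 and passed the filter through the libraries labelled pIpC alone. Neither the count nor the median, which take it in, is thus support. Of the 5 genes with a mean of at least 10 in each group, 2 were called higher and 1 lower. The shares over all genes that met this condition were 20.2% and 19.8%. Mgst2, a microsomal glutathione transferase that can make leukotriene C4, was at 188.6, 194.3 and 179.9 in PBS and at 3351.5, 3300.0 and 3491.8 in the libraries labelled pIpC, an 18.0-fold higher level (4.16, SE 0.11, adjusted p = 1.03e-05). The replicates of Mgst2 were within a few percent of each other in both groups, in contrast to Ltc4s with its handful of reads. Ggt5, which converts leukotriene C4 to D4, rose by 4.33 (SE 0.30, adjusted p = 9.00e-05), from 13.1 ± 4.58 to 275 ± 35.0. Cyp4f18, which hydroxylates leukotriene B4, fell by 2.25 (SE 0.25, adjusted p = 0.000627), from 2314 ± 763 to 471 ± 71.5.

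Of the leukotriene and lipoxin receptors, 3 of 5 were called higher, beside 25.0% of all genes tested (median log2 difference 1.43). Among those called higher, Cysltr2, a cysteinyl leukotriene receptor, had no read in PBS and passed the filter through the libraries labelled pIpC alone. Neither the count nor the median, which take it in, is thus support. Of the 4 genes with a mean of at least 10 in each group, 2 were called higher, beside 20.2% of all genes that met this condition. Ltb4r1, the high-affinity leukotriene B4 receptor, was at 1592.9, 1604.3 and 2838.2 in PBS and at 5168.0, 5055.3 and 5457.7 in the libraries labelled pIpC (1.43, SE 0.24, adjusted p = 0.00365). Fpr2, a formyl peptide receptor that also binds lipoxin, had the highest difference of all the pathway genes, from 16.4, 36.4 and 21.5 to 4615.0, 4362.6 and 4287.7 (7.50, SE 0.28, adjusted p = 1.68e-05). Both Ltb4r1 and Fpr2 are known from neutrophils, whose markers moved in the same direction, and the part of neutrophils was not tested. Ltb4r2, the low-affinity receptor, was not called (-0.39, SE 0.46, adjusted p = 0.537), but was called lower without PBS replicate 3 (-0.88, adjusted p = 0.0234).

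Of the lipoxygenases other than the members, Alox12, the platelet 12-lipoxygenase, was the only gene of 5 that could be tested, at 3.5, 4.0 and 0 in PBS and 40.9, 74.6 and 50.3 in the libraries labelled pIpC (4.27, SE 0.68, adjusted p = 0.00308), and it too passed the filter through the second group alone. The platelet list was also higher, as given above, and its part was not tested. In the epoxygenase branch 3 of 3 tested genes were called higher, beside 25.0% of all genes tested. The median log2 difference was 4.12, or 3.65 with Cyp2j9 at its bound for a floor of 3 reads. However, 2 of the 3 genes, Cyp2j6 and Cyp2j9, passed the filter through the libraries labelled pIpC alone. Neither the count nor the median is thus support. Cyp2j9, an epoxygenase, went from 0.9, 0 and 0 to 42.9, 33.7 and 36.7 (adjusted p = 0.000209), and Ephx1, an epoxide hydrolase, from 10.4, 12.1 and 23.8 to 51.9, 49.0 and 61.9 (1.83, SE 0.37, adjusted p = 0.00852).

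**Figure D4:**
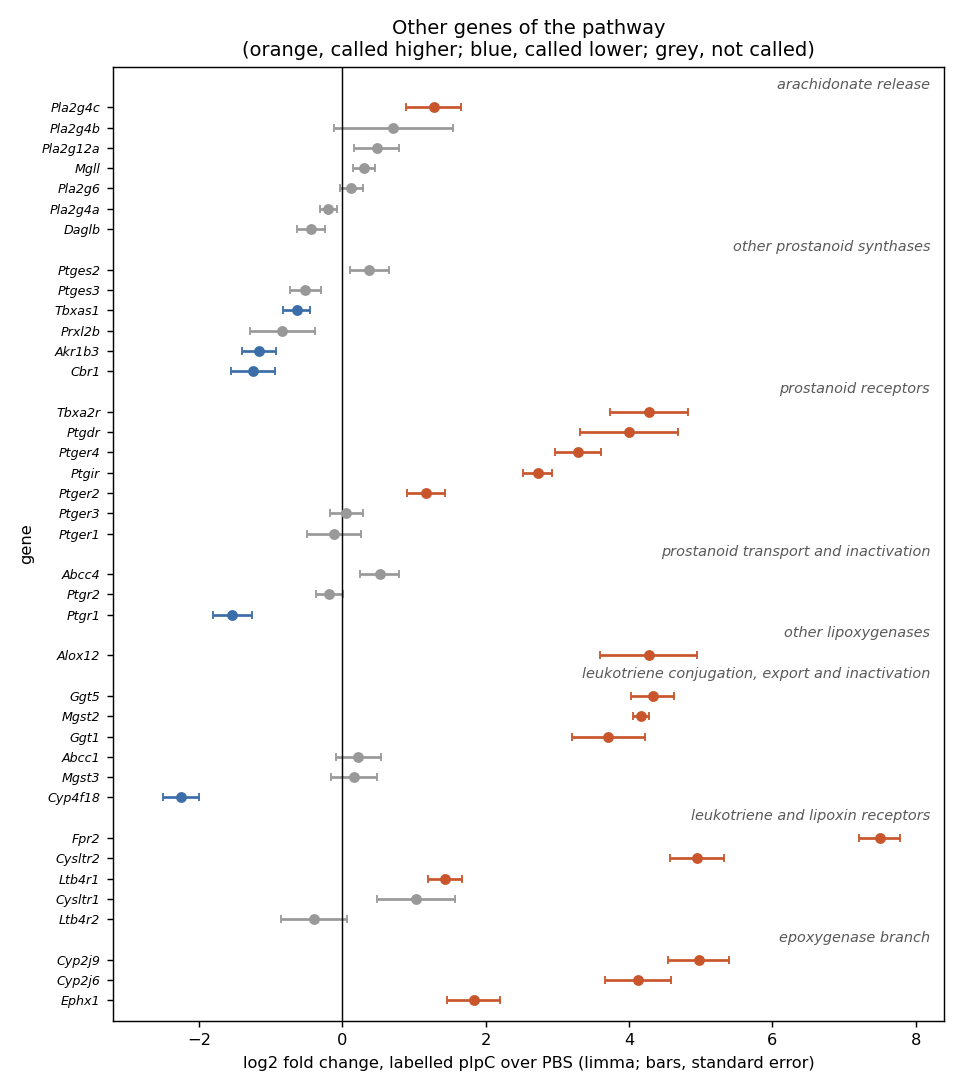
Log2 difference, libraries labelled pIpC minus PBS, with its standard error (limma on the log2 of normalized count + 1), of the 38 tested genes of the pathway that are not among the 10 enzymes, in 8 lists. Orange marks the 16 genes called higher, blue the 5 called lower and grey the 17 not called, and the differences of genes with almost no PBS reads depend on the added count of 1.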

How the data were processed

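Per the labels, GFP+ cells of the bone marrow were used for poly(A) RNA-seq without strand. For the upstream steps, the submitters' processing notes name GRCm38, HISAT2 2.2.1, SAMtools, featureCounts of Subread and edgeR, while the study's methods name STAR, RSEM and DESeq2 with a stranded setting and c-Kit+ cells, and the conflict could not be resolved. The authors deposited 1 table of normalized counts per gene (a signal: gene counts divided by 1 size factor per library). Each value was a whole multiple of what 1 read is worth in its library (100% of values, tolerance 0.001), which gave whole reads and the depth.

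Ensembl identifiers were matched to GENCODE symbols on GRCm38 (55141 of 55487). Exon lengths were those of the union of exons. Prxl2b was listed there as Fam213b and Cyp2c44 as Cyp2c23. The 15020 genes whose normalized counts averaged 10 or more across the 6 libraries were fitted with limma 3.58.1 (trend) in R 4.3.3 on log2(normalized count + 1), all libraries, no covariates, with Benjamini-Hochberg adjusted p under 0.1, the study's threshold. Fold changes on this scale understate those of low genes. All adjusted p-values of the pathway genes, of the Hpgd neighbours and of Brd9 come from this fit. It was also run on simulated data with far fewer changed genes than were called here, so that run does not vouch for these calls. Brd9 was also given a 2-sided exact permutation test (scipy 1.17.1). Alternatives were other pseudocounts, filters, normalizations, a replicate block, leaving out each library, and edgeR 4.0.16 and DESeq2 1.42.0 on the whole reads.

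The 10 enzymes and all lists were chosen with earlier results of these data known, so no p is given for the enzymes. Named besides them were Brd9, the tested gene with the highest and the one with the lowest log2 difference in each list, each called gene with a mean of at least 100, and the 5 genes most correlated with Hpgd. The genes within 500 kb of Hpgd, those that overlap an enzyme, and Ptgdr, Cyp2j6, Ggt1 and Cysltr2 were named after their values were seen.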

Additional observations from a re-analysis of the deposited data

How the results depend on the processing

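In 108 comparisons with alternatives that could move them, the log2 differences of the 9 enzymes that passed the filter kept their direction but for Alox15, at -0.075 after quantile normalization. Other filters, the replicate block and the fit without a trend leave these differences as they are by construction, and Ltc4s was not put to this comparison. The number of all genes called lower was 3058, and leaving out 1 library at a time gave 1860 to 4597, with 1860 without pIpC replicate 2, 1908 without pIpC replicate 3 and 4597 without PBS replicate 3. Of the other pathway genes 21 were called, and 12 with a mean of at least 50 (7 higher), where fewer genes were tested. Leaving out 1 library gave 19 to 32 called, 15 to 21 higher and 4 to 11 lower, and quantile normalization gave 8 lower. The Ptger1 difference, not called, ranged from -0.47 to 0.12 with 1 library left out, and turned positive without PBS replicate 1 (0.12), PBS replicate 2 (0.0015) or pIpC replicate 2 (0.04). The cause of these shifts was not tested. Fitted on whole reads, edgeR called 6901 and DESeq2 7451 genes, against 6808. Same-numbered libraries did not deviate together (correlations -0.12, 0.14 and 0.04), so the numbers were not taken as pairs, and a fit with a replicate block called 6095 genes, 21 of them pathway genes. With 3 libraries per group, the errors of genes under about 10 normalized counts, such as Hpgds in PBS and Ltc4s, were set by a handful of reads.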
